A study of Mus musculus with 3072 samples.

Results

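Barcoded bone marrow cells in which the clonal barcode reads pointed to several barcodes were compared with cells in which they pointed to one. A cell entered when the authors' table of wells called its barcode present and gave it at least 20000 counts. It was placed by the barcode number in that table, below named the effective number: 2 or more for several, 1 for one. Of 2859 wells of that table matched to a sample, 2317 were members. They were 770 cells with several barcodes and 1547 with one. The HSC were 178 and 417, the CFU 184 and 391, and the MkP 408 and 739. The members were chosen by their barcode reads and total counts, so the barcode values are a description and carry no test. The expression of genes was not used in the choice and was tested.

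In RNA barcoding a short expressed sequence is inserted into the genome of a stem cell, usually by a viral vector, and is inherited by all of its progeny. Cells that carry the same barcode trace back to the same founder. A cell can hold more than one barcode. Hematopoietic stem cells renew themselves and give rise to every blood lineage, among them the megakaryocytes that shed platelets and the precursors of red cells.

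The series examined bone marrow of C57BL/6 mice of WT genotype that had received transplanted barcoded stem cells, with and without acute platelet depletion. The 4 control mice were sampled at week 32 after transplantation and the 4 platelet-depleted mice at week 28, so treatment, week and experiment cannot be told apart. All 8 mice carried the transplant, and the labels name no other allele or agent. Single cells were sorted by flow cytometry as HSC, CFU and MkP, names that the labels do not spell out, and sequenced by Smart-seq2, which reads whole transcripts and has no molecular identifiers.

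Counts were summed over the cells of each kind in each mouse and population, and the sums of both kinds were paired by mouse. A mouse entered a population with at least 10 cells of both kinds. This left 6 mice in HSC, 7 in CFU and 7 in MkP, or 20 pairs with 765 cells of several barcodes and 1175 of one. Control mouse 4 entered none, because 0 of its 297 barcoded cells had several barcodes, which allows a share of up to 1.01%. Depleted mouse 4 had 5 HSC with several barcodes and did not enter in HSC. The sums held 13153055 to 105182809 counts in HSC. In CFU they held 20876225 to 170525929 and in MkP 16847940 to 220032246. Smart-seq2 counts are reads after amplification, so intervals and limits from counts cover counting error only.

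The share of cells with several barcodes differed widely between mice. It was 68.1% in control mouse 1, 35.9% in control mouse 2, 86.3% in control mouse 3 and 0% in control mouse 4. In depleted mice 1 to 4 it was 17.6%, 27.8%, 20.1% and 16.7%. The depleted mice lay close together, while the control mice held both the lowest and the highest values. Populations of one mouse were close in some mice and apart in others. In control mouse 3 the share was 81.4% in HSC, 84.6% in CFU and 89.5% in MkP. In depleted mouse 4 it was 6.25% in HSC (exact 95% binomial interval 2.06 to 13.99%) and 20.6% in MkP (14.6 to 27.7%), and in depleted mouse 1 29.3% in HSC and 12.5% in CFU. In control mouse 2 it was 23.1% in HSC (13.5 to 35.2%) and 48.3% in CFU (34.95 to 61.8%). These intervals treat cells as independent draws, while cells of one founder share its barcodes. They describe the counts of cells and do not test populations against each other. The MkP cells of each mouse came from 2 plates. In control mouse 1 the plates gave 77.5% and 71.2%, in control mouse 2 34.9% and 38.5%, and in control mouse 3 88% and 91.2%. Depleted mouse 1 had 19.1% and 9.09%, depleted mouse 2 20.5% and 31.5%, depleted mouse 3 25.3% and 23.7%, and depleted mouse 4 20.7% and 20.5%.

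**Figure D1:**
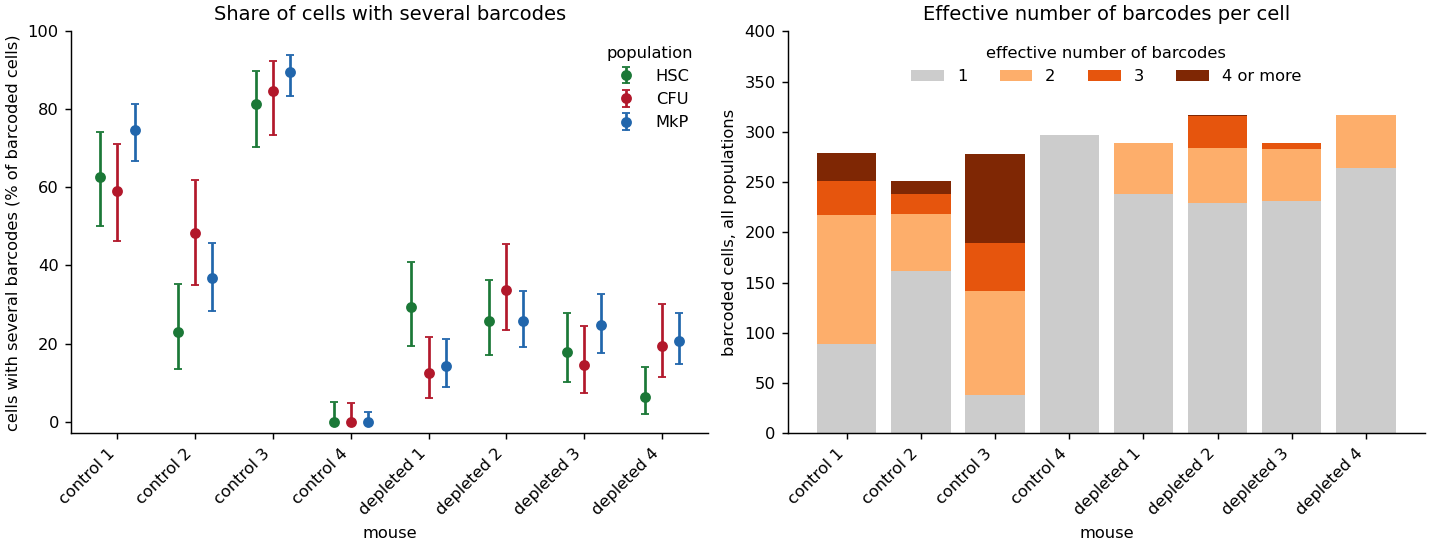
Left, percent of barcoded cells with several barcodes in each mouse and population, with exact 95% binomial intervals. Right, number of barcoded cells of each mouse by effective number of barcodes, all populations together. Control mice spread from 0% to 86.3%, depleted mice from 16.7% to 27.8%, and cells with 4 or more barcodes sit in control mice 1 to 3 except 1 cell.

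Cells with 4 or more barcodes were found in control mice 1 to 3, with 1 exception. Of 770 cells with several barcodes 500 had 2, 139 had 3 and 131 had 4 or more, and the highest number was 8. In control mice 289 of 520 cells with several barcodes had 2 (55.6%) and 130 had 4 or more. In depleted mice 211 of 250 had 2 (84.4%) and 1 had 4 or more. The share with 2 varied within both groups: it was 67.4% in control mouse 1, 63.3% in control mouse 2 and 43.3% in control mouse 3. In depleted mice 1 to 4 it was 100%, 62.5%, 89.7% and 100%, so depleted mouse 2 lay among the control mice.

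The effective number is the exponential of the Shannon index of a cell's barcode reads, rounded to a whole number. A cell with 2 barcodes at equal reads has an index of 0.693. Of 1547 cells with one barcode, 1308 had an index of 0 (84.6%), so all of their barcode reads were of a single barcode. The rest reached up to 0.400, and the lowest index of a cell with several barcodes was 0.406. There were 43 cells with one barcode at an index of 0.30 or more and 50 with several at an index up to 0.51. Of the cells with several barcodes, 265 (34.4%) lay between 0.60 and 0.693, which is near an even pair of barcodes. The minimum count left out 1 barcoded well, with 17713 counts, and the lowest member had 91861.

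**Figure D2:**
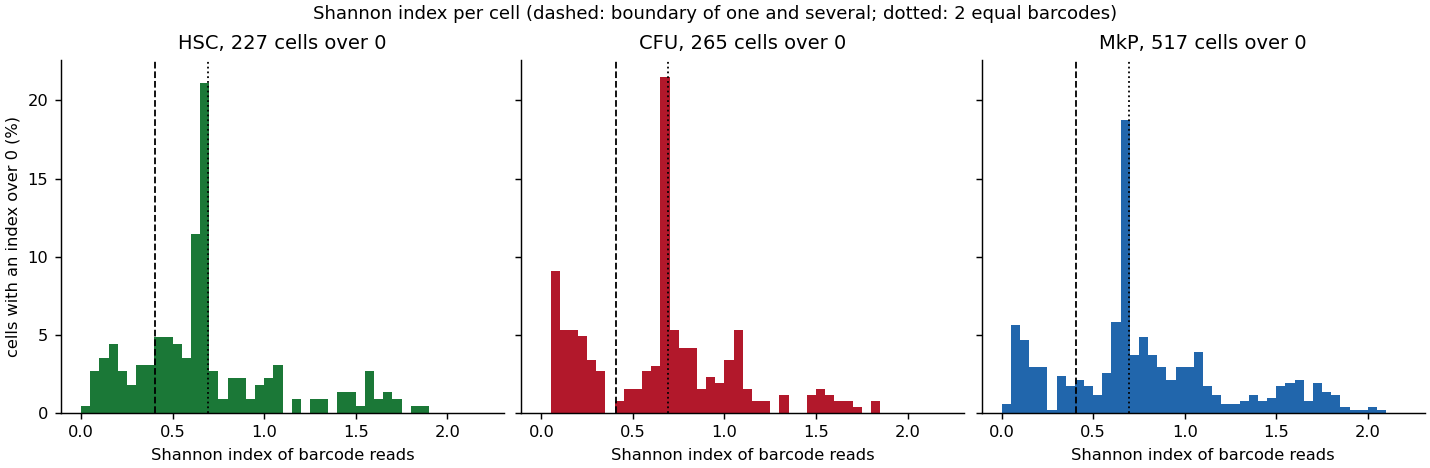
Shannon index of the barcode reads in cells with an index over 0, as a percent of those cells, in bins of 0.05 and by population. The dashed line marks the boundary between one and several barcodes and the dotted line an even pair (0.693), where each population has its highest bin.

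Barcode reads per cell went with the number of barcodes. The median was 117 reads in cells with one barcode and 299 in cells with several. Per effective barcode it was 115 and 121 reads over cells pooled from all mice, and control mouse 4 added only cells with one. Within each mouse that had both kinds it was higher with several. It was 94.6 and 126 in control mouse 1, 57 and 60.8 in control mouse 2, and 84.5 and 117 in control mouse 3. In depleted mice 1 to 4 it was 116 and 163, 133 and 173, 156 and 186, and 112 and 158. Pooled over mice within populations, the reads per effective barcode were 86 and 84.98 in HSC. In CFU they were 158 and 151, and in MkP 112 and 124. Single mice went both ways within populations: control mouse 3 had 174 and 139 in CFU and 32 and 113 in MkP. A low number of reads limits how many barcodes can be seen: cells with one barcode had as few as 6 reads and cells with several as few as 9.

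Marker genes of the sorted populations were found in both kinds of cell. At least 10 of 20 stem cell genes had a count in 414 of 417 HSC with one barcode and 178 of 178 with several. At least 10 of 20 erythroid genes had a count in 389 of 391 CFU with one and 181 of 184 with several. At least 10 of 20 megakaryocyte and platelet genes had a count in 645 of 739 MkP with one (87.3%) and 351 of 408 with several (86.03%). At least 8 of 15 neutrophil and monocyte genes had a count in 8 of 417 HSC with one barcode (1.92%) and 8 of 178 with several (4.49%). In CFU they did in 6 of 391 (1.53%) and 22 of 184 (11.96%), and in MkP in 4 of 739 (0.541%) and 8 of 408 (1.96%). These shares pool cells over mice and do not compare the kinds. Most of these cells with several barcodes, and all such HSC, came from control mouse 3, where 240 of 278 barcoded cells had several. Within that mouse the share was not higher with several in any population. At least 5 of 10 macrophage and dendritic cell genes had a count in 3.12% of HSC with one and 6.74% with several, 0.512% and 1.63% of CFU, and 5.01% and 7.60% of MkP. These shares too are pooled over mice. The part of these cells in the differences between kinds was not tested, other than by the fits without cells holding the neutrophil and monocyte list. T and NK cell genes reached 5 of 10 in 0 cells of either kind in any population. B cell genes did so in 5 cells with one barcode, 1 HSC, 3 CFU and 1 MkP, and in 0 with several, which allows up to 1.69% of HSC, 1.63% of CFU and 0.735% of MkP.

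Mpo, the myeloperoxidase of neutrophil and monocyte granules, averaged 944 CPM in CFU sums of several barcodes and 0.786 CPM in sums of one. With several barcodes Mpo stood at 1485, 2.78 and 741 CPM in control mice 1 to 3 and at 0, 1937, 51.1 and 2389 CPM in depleted mice 1 to 4. With one barcode Mpo stood between 0.00546 and 2.07 CPM in all 7 mice. Mpo was higher with several barcodes in 6 of 7 mice, and its sums overlapped between the kinds only through depleted mouse 1, which had 0. The log2 fold change of Mpo was 9.94 (SE 1.73) with an unadjusted p of 3.37e-04, and it missed the threshold over 13055 genes (edgeR adjusted p = 0.9997). It passed without control mouse 2, at 11.12 (edgeR adjusted p = 2.22e-04), and its adjusted p over all alternatives ran from 1.07e-08 with DESeq2 to 1. For CFU wells of control mouse 2 the authors' own population column says MkP.

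The Mpo counts came from few cells. Of 184 CFU with several barcodes, 10 held over 1000 CPM of Mpo (5.43%), from 1312 to 44693 CPM. Of 391 CFU with one barcode 0 did, which allows up to 0.767% by counting error alone, and 76 of the 391 came from control mouse 4, which had no cell with several barcodes. Cells of a mouse are not replicates, so these pooled shares describe the cells and do not compare the kinds. The highest Mpo among all other CFU was 129 CPM. The limit of 1000 CPM was chosen after these values were seen, and no test is given. The 10 cells were 3 of 39 cells with several barcodes in control mouse 1, 4 of 55 in control mouse 3, and 1 each in depleted mouse 2 (of 26), depleted mouse 3 (of 11) and depleted mouse 4 (of 15). Control mouse 2 had 0 of 28 and depleted mouse 1 had 0 of 10. In HSC 0 of 178 and 0 of 417 cells exceeded that level, and in MkP 1 of 408 cells with several barcodes and 1 of 739 with one did.

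These 10 CFU had high levels of granule protease genes and low levels of leading erythroid genes. Prtn3, a granule protease, was at 270 to 9111 CPM in the 10 cells, and its median in the other 565 CFU was 0. Ctsg and Elane, further granule proteases, had medians of 3850 and 3167 CPM, with 1 cell at 0 for Ctsg and 2 at 0 for Elane. Plac8 was at 1174 to 3243 CPM. Klf1, the erythroid transcription factor, was at 0.512 to 3.98 CPM in them against a median of 712 CPM in the other CFU. Car1, the carbonic anhydrase of early red cells, was at 3.63 to 23.7 CPM against 4065. The 10 cells held a count for 6 to 12 of 20 erythroid genes, with a median of 10.5 against 18. Their effective number of barcodes ran from 2 to 5 and their barcode reads from 84 to 738. Their total counts had a median of 1601670, against 2404410 in the other CFU.

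**Figure D3:**
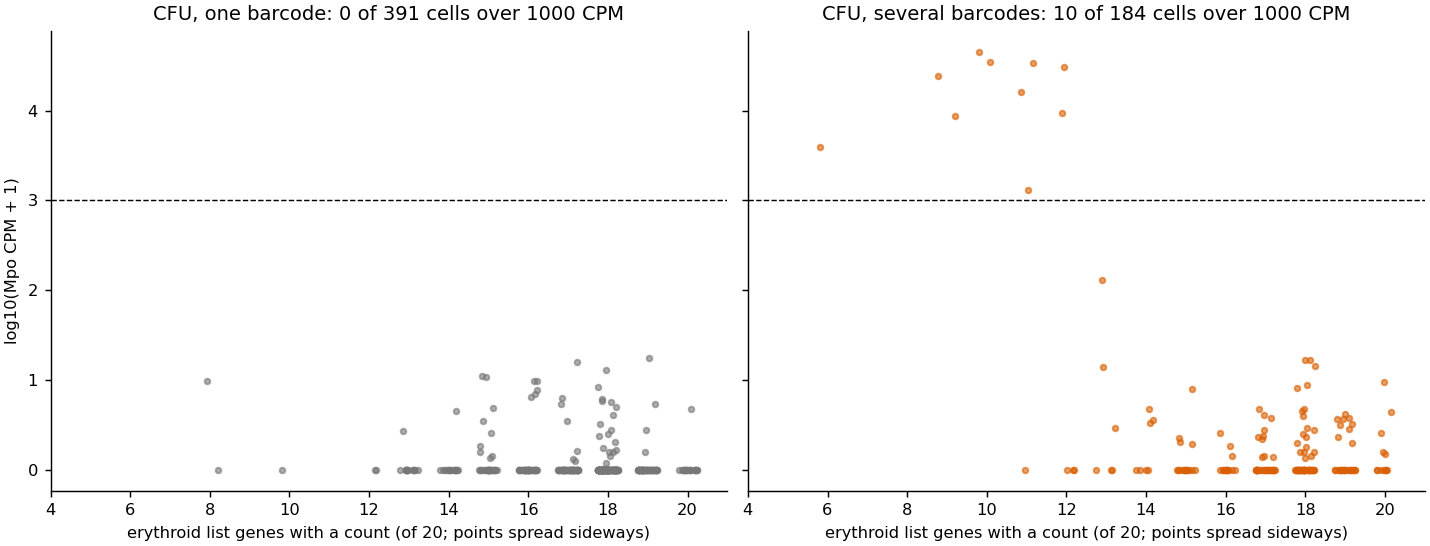
Mpo level of single CFU on a log10 scale (CPM plus 1) against the number of erythroid list genes with a count, in cells with one barcode (left, 391 cells) and several (right, 184 cells). The dashed line marks 1000 CPM, and the 10 cells above it all have several barcodes and at most 12 erythroid genes.

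CFU with little Klf1 were counted as well, whatever else they expressed. Klf1 was under 10 CPM in 13 of 184 CFU with several barcodes (7.07%) and in 4 of 391 with one (1.02%), again as a description of pooled cells. This limit too was chosen after the values were seen. The 13 cells were 7 in control mouse 3, 3 in control mouse 1 and 1 each in depleted mice 2, 3 and 4. The 4 cells with one barcode were 3 in depleted mouse 2 and 1 in depleted mouse 3. In depleted mouse 2 these were 3 of 51 cells with one barcode against 1 of 26 with several. All 10 cells with high Mpo were among the 13, and Plac8 exceeded 100 CPM in 12 of the 13 and in 1 of the 4.

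The CFU genes of lowest p that were higher with several barcodes in every mouse were Serpinb1a, Plac8, Hmmr, Coro1a and Unc93b1. Serpinb1a, an inhibitor of granule proteases, averaged 25.8 CPM with several and 0.479 with one (log2 fold change 5.61, SE 1.19). Coro1a, an actin regulator of leukocytes, averaged 53.8 and 3.19 CPM (4.61, SE 1.07), and Plac8 84.6 and 9.36 CPM (4.06, SE 0.93). Unc93b1, which brings Toll-like receptors to endosomes, averaged 14.3 and 2.36 CPM (3.76, SE 0.88). Genes higher in 7 of 7 mice numbered 97, or 0.743% of those tested. None was called (edgeR adjusted p = 0.9997 each). Of the 15 genes of the neutrophil and monocyte list 4 passed the expression filter in CFU, and genes that pass only through the sums where they are high had to differ, so their count is no support. Elane did not pass it.

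The CFU fit was repeated without the 28 CFU that held a count for at least 8 of the 15 listed genes, a choice made after the values were seen. Mpo is on that list, so a smaller difference in Mpo follows from the choice and is no result. Control mouse 3 lost 4 of its 10 cells with one barcode and no longer entered, which left 6 mice. edgeR called 0 genes. Of the genes not on the list, Serpinb1a stood at 2.94, Coro1a at 1.35 and Plac8 at 1.12. The cells at 3928 CPM of Mpo in control mouse 1 and 1312 CPM in depleted mouse 3 held 5 and 4 listed genes. They therefore stayed in this fit. Serpinb1a was at 832 and 776 CPM in them, Coro1a at 1465 and 538 and Plac8 at 1415 and 1367. A fit without all cells of high Mpo was not run.

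Over all genes, no difference between cells with several and one barcode was called by edgeR's quasi-likelihood test with mice as blocks, in any population. In HSC 0 of 13900 genes were called (0%), with 401 at an unadjusted p under 0.05 (2.88%), 1.24% higher and 1.65% lower with several barcodes. In CFU 0 of 13055 were called (0%), and 599 had a p under 0.05 before adjustment (4.59%, of which 2.04% higher and 2.55% lower). In MkP 0 of 15459 were called (0%), with 599 (3.87%, of which 1.68% higher and 2.2% lower). With all 20 pairs together 0 of 14635 were called (0%), with 546 (3.73%), of which 101 were higher (0.69%) and 445 lower (3.04%) with several barcodes. The 20 pairs came from 7 mice, and pairs of the same mouse are not independent animals. limma-trend on cells weighted equally called 0 in each fit, and DESeq2 called 79 in HSC, 94 in CFU, 163 in MkP and 58 over all pairs. Of those DESeq2 calls 28, 33, 47 and 0 had the same sign in every pair.

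The precision of these comparisons differed between populations. Of genes with a mean of at least 8 CPM, the 95% interval of the fold change lay inside a 2-fold change in either direction for 50.4% of 9823 genes in HSC, 89.4% of 7902 in CFU and 80.05% of 9227 in MkP. As a measure of the same sums, MkP against HSC paired by mouse gave 2060 called genes of 15183 in cells with one barcode and 1182 of 14194 in cells with several, in 6 mice each (edgeR, adjusted p under 0.05).

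In HSC 0 of the genes that mark stem cells were called. Procr, a receptor used to isolate stem cells, was at 73.1 to 283 CPM with one barcode and 102 to 311 with several (log2 fold change 0.15, SE 0.18). Hlf, a transcription factor of stem cells, differed by 0.01 (SE 0.13) and was lower with several in 2 of 6 mice. Mecom, which maintains stem cells, averaged 135 and 162 CPM and was higher with several in 5 of 6 mice (0.28, SE 0.13, edgeR adjusted p = 0.999). Kit, the stem cell factor receptor, averaged 782 and 687 CPM and was lower in 5 of 6 mice (-0.20, SE 0.08, unadjusted p = 0.0343). Over the 20 listed stem cell genes the median log2 fold change was 0.10, with 13 above 0 and 7 below, against a median of -0.05 over all genes.

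Megakaryocyte genes varied in HSC from mouse to mouse. Pf4, the chemokine of platelet granules, stood at 437, 329 and 73.95 CPM with one barcode in control mice 1 to 3 and at 299, 159 and 112 in depleted mice 1 to 3. With several barcodes it stood at 77.04, 74.3 and 236 CPM in those control mice and at 16.9, 517 and 41.8 in those depleted mice. The kinds overlapped, and 4 of 6 mice were lower with several (-1.24, SE 0.92). Vwf, the platelet adhesion factor, differed by 0.24 (SE 0.22). Of 19 listed genes tested 5 lay above 0 and 14 below, with a median of -0.21.

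Cell cycle and interferon genes in HSC lay mostly below 0 without reaching the threshold. Of 20 S phase genes 18 lay below 0 (median -0.33) and 0 had an unadjusted p under 0.05. Of 20 G2/M genes 15 lay below 0 (median -0.74), while their summed level was 445 CPM with one barcode and 496 with several. Of all HSC genes tested 43.9% lay above 0. The G2/M measure per cell went the other way. In HSC thinned to 20000 counts, G2/M genes with a count were more with several in 4 of 6 mice and fewer in 2 (0.24, SD 1.32, exact permutation p = 0.656). Of 31 interferon response genes tested 25 lay below 0 (median -0.33), 2 with an unadjusted p under 0.05, where 1.65% of all genes did so in that direction. Irf7, which drives interferon transcription, averaged 47.1 CPM with one barcode and 32.7 with several, was lower in 5 of 6 mice and differed by -0.64 (SE 0.26). Isg15, an interferon-induced ubiquitin-like protein, averaged 9.36 and 5.28 CPM (-1.06, SE 0.73). The value of Irf7 ran from -1.12 to 0.03 over the alternatives.

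The HSC genes with the lowest p among those of the same sign in every mouse are given as values. The share of genes higher in every pair was 1.15% and lower in every pair 1.5%. Higher with several were Lbp, Fut8, 4833439L19Rik, Sat1 and Zfp51. Lbp, a lipopolysaccharide binding protein, stood at 61.2, 81.6 and 19.6 CPM with one barcode in control mice 1 to 3 and at 98.7, 136 and 44.2 with several. In depleted mice 1 to 3 it stood at 56.8, 69.3 and 83.1 with one and at 95.3, 95.8 and 113 with several. Its kinds overlapped over mice, but each mouse was higher with several (0.71, SE 0.14, unadjusted p = 0.00118). Lower with several were Phrf1, Fuca2, Man2b2, Cdipt and Mtmr6. Phrf1, a ubiquitin ligase, averaged 92.9 and 52.5 CPM (-0.84, SE 0.13, unadjusted p = 2.50e-04), and Fuca2, a fucosidase, 89.5 and 53.4 CPM (-0.75, SE 0.13). All 10 had an edgeR adjusted p of 0.999. Man2b2, a lysosomal mannosidase, was lower with several in HSC (-1.02, SE 0.22) and higher in 7 of 7 mice in MkP (0.38, SE 0.11).

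In CFU 0 of the 20 erythroid genes were called. Klf1 averaged 734 and 714 CPM (log2 fold change -0.04, SE 0.08), Epor, the erythropoietin receptor, 244 and 233 CPM (-0.08, SE 0.07), and Gata1, the erythroid and megakaryocytic transcription factor, 436 and 477 CPM (0.12, SE 0.06). The 95% interval of Klf1 reached from -0.22 to 0.14. Hbb-bt, a beta globin, differed by 0.20 (SE 0.38), and reads of globin copies may be shared. Of 20 erythroid genes 9 lay above 0 and 11 below, with a median of -0.03, as over all genes (-0.03).

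G2/M genes in CFU lay mostly above 0. Of 20 listed, 17 did, with a median of 0.18 against -0.03 over all genes, and 6 had an unadjusted p under 0.05, where 2.04% of all genes did so in that direction. The measure per cell went the other way. In CFU thinned to 20000 counts, G2/M genes with a count were fewer with several in 5 of 7 mice (-0.12, SD 0.92, exact permutation p = 0.766). Hmmr, a spindle protein, averaged 99.7 CPM with one barcode and 125 with several (0.32, SE 0.07, unadjusted p = 0.00212). It was named for a low p and 1 sign in every mouse, so its rise in 7 of 7 mice follows from that choice. Mki67, a marker of cycling cells, averaged 256 and 301 CPM and was higher in 4 of 7 mice (0.20, SE 0.09). None was called (edgeR adjusted p = 0.9997). Of 20 S phase genes 17 lay below 0, with a median of -0.06, and Mcm2, a replication licensing factor, differed by -0.01 (SE 0.08). Of the genes lower with several in every CFU pair (1.03% of those tested), Slc19a2, Nxf1, Rftn1, Rabgef1 and Prss50 had the lowest p. Slc19a2, a thiamine transporter, stood at 23.1 to 40.7 CPM with one barcode and 12.4 to 23.7 with several. It gave the lowest p of these at -0.70 (SE 0.11, unadjusted p = 1.96e-04, edgeR adjusted p = 0.9997).

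In MkP 0 of the genes of platelet precursors were called. Pf4 stood at 2659, 2211 and 3149 CPM with one barcode in control mice 1 to 3 and at 1889, 1983 and 2762 with several. In depleted mice 1 to 4 it stood at 1356, 2116, 1811 and 1974 with one and at 1388, 1362, 1270 and 1087 with several. It was lower with several in 6 of 7 mice, depleted mouse 1 being the exception, and the kinds overlapped (-0.40, SE 0.10, unadjusted p = 0.00419, edgeR adjusted p = 0.9996). Vwf averaged 194 and 153 CPM and was lower in 5 of 7 mice (-0.36, SE 0.14). Itga2b, the platelet integrin, averaged 1299 and 1323 CPM (0.04, SE 0.08), and Gp9, a subunit of the von Willebrand factor receptor, 149 and 145 CPM (SE of the log2 fold change 0.11). Gata2, a transcription factor of progenitors, averaged 558 and 636 CPM and was higher in 6 of 7 mice (0.20, SE 0.07, unadjusted p = 0.0172). Of 19 megakaryocyte and platelet genes tested 4 lay above 0 and 15 below, with a median of -0.10 against -0.03 over all genes.

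The MkP genes of lowest p and 1 sign in every mouse were again not called. The share of genes higher in every pair was 0.744% and lower in every pair 0.964%. Higher with several were Arhgdib, Pter, Prkab1, Clcc1 and Cgas. Arhgdib averaged 689 and 800 CPM (0.21, SE 0.04, unadjusted p = 6.22e-04). Cgas, the sensor of cytosolic DNA, stood at 25.9 to 55.6 CPM with one barcode and 38.8 to 68.1 with several in MkP (0.44, SE 0.09). In HSC it averaged 26.2 and 12.5 CPM and lay the other way in 5 of 6 mice (-1.23, SE 0.43), and in CFU it differed by -0.71 (SE 0.49). In MkP cells of middle total count Cgas differed by -0.02. Lower with several were Lgals1, Ctsd, Slc4a7, Cbx5 and Sar1b. Lgals1, a galectin, averaged 31.1 and 17.8 CPM (-0.90, SE 0.20), and Ctsd, a lysosomal protease, 307 and 243 CPM (-0.33, SE 0.07).

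Genes that restrict or sense retroviruses were followed because the barcodes are usually carried by a viral vector. Of the 20 listed, 17 were tested in each population and 0 were called by edgeR. Their median log2 fold change was 0.01 in HSC, 0.01 in CFU and -0.05 in MkP. With an unadjusted p under 0.05 there were 2 in HSC, 1 in CFU and 1 in MkP, where 2.88%, 4.59% and 3.87% of all genes had such a p. Apobec3, a restriction factor that mutates retroviral DNA, averaged 384 and 388 CPM in HSC (0.01, SE 0.15). In CFU it averaged 307 and 285 CPM (-0.12, SE 0.09), and in MkP 166 and 157 CPM (-0.09, SE 0.20). Interferon response genes had medians of 0.13 in CFU over 25 genes and 0.02 in MkP over 30.

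Targets of p53, which respond to DNA damage, had median log2 fold changes of 0.19 in HSC over 17 genes, -0.02 in CFU over 15 and -0.07 in MkP over 19. Cdkn1a, the p21 inhibitor of the cell cycle, averaged 17.4 and 9.08 CPM in MkP (-1.03, SE 0.54) and was lower with several in 6 of 7 mice. Ccng1, a cyclin induced by p53, averaged 89.8 and 69.3 CPM in MkP (-0.38, SE 0.14, unadjusted p = 0.0250). Mdm2, which degrades p53, differed by 0.06 (SE 0.43) in HSC, -0.02 (SE 0.13) in CFU and 0.15 (SE 0.29) in MkP. Immediate early and heat shock genes had medians of -0.04 in HSC and 0.14 in CFU, and Fos, an immediate early factor, differed by 0.03 (SE 0.51) in HSC, 0.61 (SE 0.32) in CFU and -0.04 (SE 0.08) in MkP. Mitochondrially encoded genes had medians of 0.01 in HSC, 0.05 in CFU and 0.02 in MkP, and cytosolic ribosomal protein genes of 0.02 in HSC and -0.03 in CFU, where reads of near-identical gene copies may be split.

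**Figure D4:**
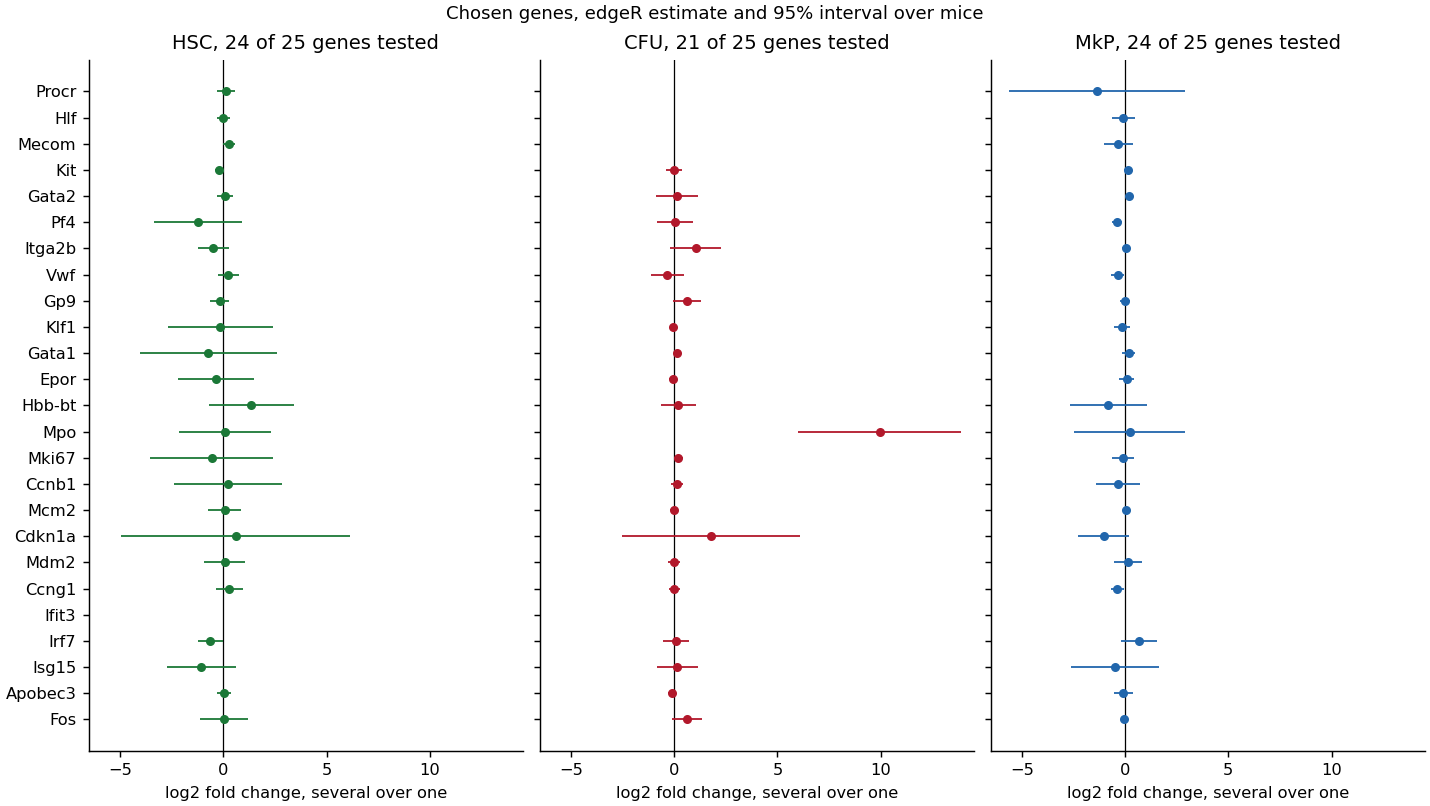
Log2 fold change of 25 of the 26 chosen genes, several over one barcode, with 95% intervals from edgeR over 6 mice in HSC and 7 in CFU and MkP; genes left out by the expression filter have no point. Most points lie within 0.5 of 0, and Mpo in CFU lies at 9.94.

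Of the 26 chosen genes 25 were tested in HSC, 22 in CFU and 25 in MkP, and 0 were called. The absolute log2 fold change was under 0.5 for 18, 17 and 21 of them. With an unadjusted p under 0.05 there were 2 in HSC, both lower with several, 1 in CFU, which was Mpo, and 4 in MkP, of which Gata2 was higher and Pf4, Vwf and Ccng1 were lower. Of all genes tested 2.88% in HSC, 4.59% in CFU and 3.87% in MkP had such a p.

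Whether the difference between kinds itself differed between populations was tested over 14635 genes in the fit of all 20 pairs. Those pairs came from 7 mice and were blocked by mouse and population. Pairs of the same mouse are not independent animals, so the p-values rest on fewer animals than pairs. For MkP against HSC edgeR called 0 genes (0%) and DESeq2 169, and 662 fell under 0.05 before adjustment. For CFU against MkP edgeR called 0 (0%), DESeq2 311, and 512 were under 0.05 before adjustment. For CFU against HSC edgeR called 1 (0.00683%), DESeq2 413, and 945 were under 0.05 before adjustment. The called gene was Csrp3, a muscle LIM protein, at -7.34 (SE 0.97, edgeR adjusted p = 0.00672). In HSC with one barcode its counts were 0, 0 and 0 in control mice 1 to 3 and 0, 2 and 0 in depleted mice 1 to 3. In HSC with several barcodes they were 1, 1 and 129 in those control mice and 0, 110 and 1 in those depleted mice. In control mouse 3 109 of the 129 counts, and in depleted mouse 2 99 of the 110, were in 1 cell. In CFU Csrp3 averaged 3.65 CPM with one and 2.49 with several (-0.73, SE 0.59), and with HSC sums at or near 0 the size of the fitted value rests on the prior count. Leaving out each mouse in turn kept the value between -7.99 and -6.75. It missed the threshold without control mouse 3 (edgeR adjusted p = 0.110), without depleted mouse 2 (0.109) and without depleted mouse 3 (0.115).

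Depleted and control mice were compared in the size of the difference between kinds, and 0 of 14635 genes were called by edgeR (0%; lowest adjusted p 0.120). At an unadjusted p under 0.05 there were 1144, of which 30 were higher in depleted mice and 1114 lower. The median over all genes was -0.29. With RLE factors the split was 234 and 677, and among genes of at least 8 CPM 154 and 226. DESeq2 called 403, 7 higher and 396 lower. Sums of several barcodes held 15 to 128 cells in the control mice and 10 to 39 in the depleted mice that entered. This fit too took its 20 pairs from 7 mice, and pairs of the same mouse are not independent animals.

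Of the measures of whole cells 0 passed the threshold. They were compared over mice by an exact two-sided sign-flip permutation test, whose smallest p is 0.0312 with 6 mice and 0.0156 with 7, with adjustment over 18 tests. The lowest adjusted p was 0.919, and no unadjusted exact p was under 0.203. The median total count per cell differed by -0.11 ± 0.19 on the log2 scale in HSC (SD, n = 6), -0.01 ± 0.21 in CFU (n = 7) and 0.03 ± 0.17 in MkP (n = 7). In cells thinned to 20000 counts, HSC with one barcode had 3469 genes with a count and HSC with several 3469, CFU had 4202 and 4217, and MkP had 3674 and 3629. The difference was 0.421 ± 112 genes in HSC, 15.3 ± 100.1 in CFU and -44.6 ± 109 in MkP. Mitochondrially encoded genes gave 3.69% of counts in HSC with one barcode and 3.65% with several. In CFU they gave 3.19% and 3.28%, and in MkP 2.81% and 2.84%.

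Cells that held at least 10 of 20 megakaryocyte genes and at least 10 of 20 erythroid genes were counted as a sign of mixed identity. As means over mice they were 7.82% of HSC with one barcode and 8.61% with several. Of CFU they were 15.1% and 16.8%, and of MkP 28.5% and 24.6%. The paired difference was 0.787 ± 5.47 percentage points in HSC, 1.68 ± 8.01 in CFU and -3.95 ± 7.47 in MkP (exact permutation p = 0.938, 0.609 and 0.203). Control mouse 2 stood apart in both kinds: 83.3% of its CFU with one barcode and 75% with several held both lists, against 0 to 20% in the other mice. In MkP it had 80.2% and 68.1%, against 5.13 to 32.4%. For CFU wells of this mouse the authors' own population column says MkP, and which label is right was not tested. In thinned cells its CFU with one and several barcodes held 15.9 and 15.9 of 20 G2/M genes, and its MkP 6.74 and 5.55. Klf1 was under 10 CPM in 0 of its 30 CFU with one barcode and 0 of its 28 with several. Without control mouse 2 the difference was -1.32 points in HSC, 3.35 in CFU and -2.59 in MkP. Of 20 S phase genes, thinned HSC with one barcode held a count for 6.84 on average and HSC with several for 6.10. CFU held 17.7 and 17.5, and MkP 12.3 and 12.2. Of 20 G2/M genes HSC held 1.57 and 1.81, CFU 14.9 and 14.8, and MkP 5.41 and 5.12.

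**Figure D5:**
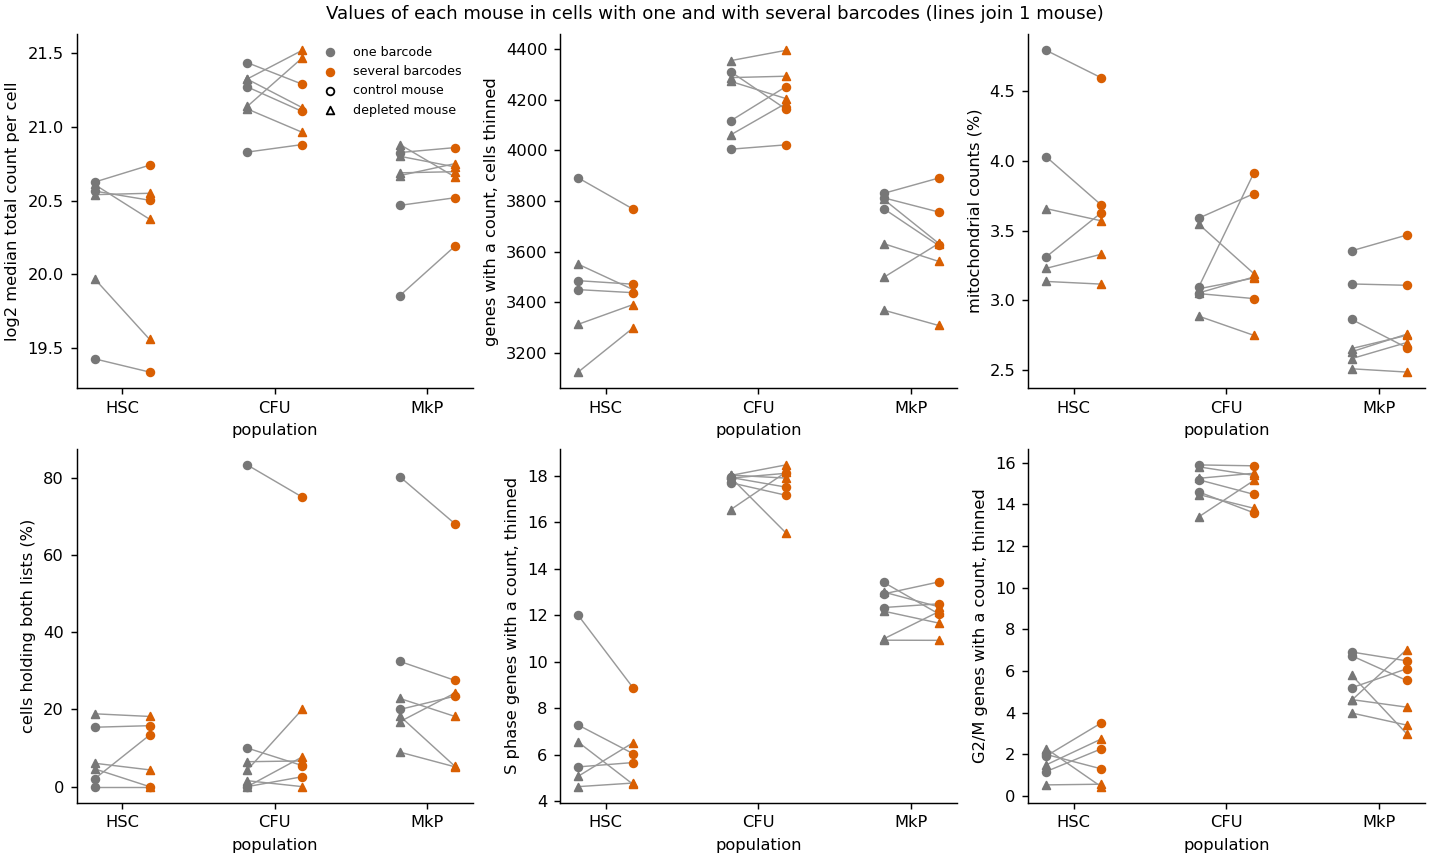
Values of each mouse in cells with one barcode (grey) and several (orange) by population: log2 median total count, genes with a count in thinned cells, percent of mitochondrial counts, percent of cells holding both lists, and S phase and G2/M genes with a count in thinned cells. Circles are control and triangles depleted mice, lines join the kinds of 1 mouse, and lines slope both ways in every panel.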

How the data were processed

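Counts per gene are whole numbers as the authors deposited them. Per the submitters' processing notes Trim Galore 0.5, STAR 2.6.0 and HTSeq 0.6.1 were used, with no role given; the genome build is not given in the sources used here. Per the file headers the authors' table gives each well's total count, barcode reads, barcode call and, as a score, the Shannon index of its barcode reads. The code opening each sample title was taken as the mouse, and population came from the sample name. 1 well of the table matched no sample, and 211 matrix columns without a matched row were not used. No doublet caller was run. In 93 CFU wells of control mouse 2 the authors' own population column says MkP; the name was followed.

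Sums were tested with edgeR 4.0.16 in R 4.3.3 (quasi-likelihood, TMM, default filter, mouse as block), with Benjamini-Hochberg adjustment over all genes tested and a threshold of 0.05. In fits of all pairs the block was mouse and population together. CPM are after TMM scaling. A gene's pairs were compared as log2(CPM + 1). The standard error is the log2 fold change divided by the square root of F. The tests were also run on simulated sums, drawn at the fitted spread of each gene. These were not built from single cells, so they do not cover sums led by few cells, and no result rests on them. Both sums of a mouse come from the same animal: their deviations correlated in HSC at 0.0319 to 0.213, in CFU at 0.118 to 0.301 and in MkP at 0.0713 to 0.254.

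Named genes were the 26 of the panel, and in each fit the 5 of lowest p in each direction with a mean of at least 8 CPM and the same sign in every pair, or every called gene. Members, lists, panel and tests were chosen with earlier results of these data known. Alternatives were DESeq2 1.42.0, limma 3.58.1, RLE factors, other filters, other cells and leaving out mice. 1 gene of the panel is not reported here.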

Additional observations from a re-analysis of the deposited data

Results flagged for a closer look

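In 126 sets of mouse values 7 held a mouse far from the others, and chance alone does so in about 1 in 20 sets. The sets took in the percent of cells with several barcodes within each treatment and population, as a description. No far value was among those. The HSC that held both the megakaryocyte and the erythroid list were 11.3 percentage points more with several barcodes in control mouse 2, while the other 5 mice lay between -4.62 and 0.4049. The remaining values are paired differences of log2(CPM + 1), several minus one. Mki67 differed by -5.65 in HSC of depleted mouse 1 and by -0.60 to 1.91 in the others. Ccng1 differed by -0.76 in CFU of depleted mouse 4 and Rftn1 by -0.87 in CFU of depleted mouse 1. In MkP Cdkn1a differed by 2.22 in depleted mouse 1, where the other 6 mice lay below 0, Mdm2 by 1.95 in control mouse 3 and Vwf by -1.17 in depleted mouse 2. The effect of several barcodes on Csrp3 differed between CFU and HSC by -7.34 (SE 0.97, edgeR adjusted p = 0.00672), and its HSC counts came mostly from 1 cell in each of control mouse 3 and depleted mouse 2.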

How the results depend on the processing

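Counts of called genes are given in the order HSC, CFU, MkP and all populations, then the effect in MkP against HSC, CFU against HSC, CFU against MkP and depleted against control. DESeq2 called 79, 94, 163, 58, 169, 413, 311 and 403 genes. For the effect in MkP against HSC, CFU against HSC and CFU against MkP, other choices gave these counts: a mean of 8 CPM 1, 9 and 17, cells with median barcode reads 5, 8 and 4. Without a filter CFU had 3, CFU against HSC 2, CFU against MkP 1 and depleted against control 2, and with a mean of 8 CPM CFU had 3. RLE factors gave 2 in MkP against HSC and 3 in CFU against MkP. At least 3 barcodes gave 65 in MkP against HSC and 73 in CFU against HSC, and cells of middle total count 94 and 80. Thinned cells gave 41 in CFU against HSC and 40 in CFU against MkP, and 5 or more cells 10 and 11. At least 20 cells gave 1 in MkP against HSC. limma-trend and control mice only gave 0 in CFU against HSC. Without cells holding the myeloid list, chosen after seeing the data, MkP against HSC and CFU against HSC had 2 each. Without the replicate block, that is without the pairing by mouse, the effects gave 1, 98, 122 and, for depleted against control, 1. It changed no other call.

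Leaving out 1 mouse gave 0 to 3 genes in CFU, 0 to 3 in MkP against HSC, 0 to 19 in CFU against HSC, 0 to 23 in CFU against MkP and 0 to 1 in depleted against control. Without control mouse 2 these were 3 in CFU, 19 in CFU against HSC and 23 in CFU against MkP, and without control mouse 3 MkP against HSC had 3.

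Of 258 alternative values of the whole-cell measures 213 kept the side of 0, 45 did not and 0 passed the threshold (lowest adjusted p 0.818, exact permutation). The following differences, several minus one, changed side. Median total count (log2) was 0.0780 in CFU with 20 cells, 0.00319 with 3 barcodes and 0.0104 in the middle of totals. With median barcode reads it was 0.0137 in HSC and -0.299 in MkP, and it was -0.0442 in MkP in the middle of totals. Genes in thinned cells were 4.89 in MkP with 3 barcodes, -71.3 in HSC with median barcode reads and -49.9 in HSC of control mice. Mitochondrial percent was -0.0332 in MkP of control mice. Cells holding both lists were -0.800 points in HSC with 20 cells and -8.74 with median barcode reads, and in CFU -3.15 with 3 barcodes, -2.21 in the middle of totals and -3.44 in control mice. S phase genes were 0.4663 in CFU with 20 cells, 0.238 with 3 barcodes, 0.460 in the middle of totals and 0.287 with median barcode reads, 0.150 in MkP with 3 barcodes and 0.00941 in HSC with 5 cells. G2/M genes were 0.334 in CFU with 20 cells, 0.554 in the middle of totals and 0.615 with median barcode reads, -0.427 in HSC with 20 cells, -2.05 with median barcode reads, and 0.0204 in MkP with 3 barcodes. Without 1 mouse, ranges crossed 0 as follows. Total count ran from -0.0699 to 0.0172 in CFU and -0.0197 to 0.0727 in MkP, genes in HSC from -34.5 to 25.2 and in CFU from -4.62 to 42.4, mitochondrial percent in HSC from -0.110 to 0.0228 and in CFU from -0.0269 to 0.168. Both lists ran in HSC from -1.32 to 1.87 and in CFU from -0.658 to 3.35, S phase genes from -0.466 to 0.197 in CFU and -0.306 to 0.115 in MkP, and G2/M genes in HSC from -0.0320 to 0.651, in CFU from -0.427 to 0.0298 and in MkP from -0.742 to 0.131. The cause was not tested.

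Of 2708 values of named genes under alternatives 2413 kept their sign and 295 did not, 27 passed the threshold with DESeq2, and 1 otherwise, which was Mpo in CFU without control mouse 2. HSC had 1 mouse left with at least 3 barcodes or in the middle of totals and was not fitted there, and plates were blocked in MkP only. HSC sums are the least precise, and sums of 10 cells rest on few cells.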
